A study of Homo sapiens with 18 samples.

Results

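The change in the palbociclib response of A375 melanoma cells between 72 hours and 6 days of treatment was measured in 8 of the 18 poly-A RNA-seq libraries of the study. The 8 libraries were fixed by their labels, with 2 libraries in each of 4 groups: control_72hr and control_6d received the DMSO vehicle, and CDK4/6i_72hr and CDK4/6i_6d received 1 μM palbociclib for the stated time. For each gene, the response at a time is the log2 ratio of treated to control libraries of that time, and the difference between times is the 6-day response minus the 72-hour response, tested as an interaction term. The remaining 10 libraries are A375 under PRMT5 inhibition and the CHL1 melanoma line, which has no 6-day control. A375 is an established human melanoma line with a mutant BRAF gene, and all 8 libraries come from this line alone. Labels do not say whether replicates were separate cultures, so the p-values measure the spread between these libraries, which may be technical.

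Palbociclib blocks the kinases CDK4 and CDK6. These kinases, bound to D-type cyclins, phosphorylate RB, which then releases the E2F factors that switch on the genes of DNA replication, and cells in which RB stays unphosphorylated stop before S phase. Cells held there for days can keep growing in size, raise their lysosomal mass and take on features of senescence, so an early and a late response can differ. Mitochondria carry their own genome, which encodes core subunits of the respiratory chain and of ATP synthase and is read as long RNAs that are cut at the tRNAs. Ribosomal RNA is made in the nucleolus as a long precursor whose spacers are cut out and degraded.

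Total counts ran from 18368608 to 19598242 in the 72-hour libraries and from 29199890 to 36036772 in the 6-day libraries. Replicates of a group differed by a biological coefficient of variation of 0.105 in control_72hr, 0.0684 in CDK4/6i_72hr, 0.301 in control_6d and 0.165 in CDK4/6i_6d, so the 6-day controls stood farthest apart. The mean log2 level of the 10% most GC-rich genes minus that of the 10% most GC-poor genes, each gene taken relative to its own median over the libraries, was 0.264 and 0.232 in control_72hr, 0.740 and 0.829 in CDK4/6i_72hr, -2.27 and -1.03 in control_6d, and -0.181 and -0.207 in CDK4/6i_6d. The GC trend thus moved with treatment at both times and was strongest in the 6-day controls, and its part in the results was not tested beyond the GC-corrected values given below. Labels name the 72-hour and the 6-day libraries as different sets, so time and library set cannot be told apart when libraries are compared across times. Each response was taken within a set. The difference between the responses still crosses the sets, so time and set cannot be told apart in it either. Summed levels of 8 measured melanocyte markers ran from 168 to 385 CPM (counts scaled to a common library total), of which MITF measured 85.2 to 219 CPM, PAX3 27.2 to 85.6 CPM and S100B 3.87 to 114.9 CPM, while the pigment genes TYR, TYRP1 and DCT did not exceed 5.19 CPM. The 11 measured markers of other cell types summed to 20.1 to 21.8 CPM in control_72hr and 28.7 to 28.9 CPM in CDK4/6i_72hr. At 6 days the sums were 15.9 to 26.2 CPM in control_6d and 34.9 to 39.7 CPM in CDK4/6i_6d. Of these markers, LUM reached 17.98 CPM, COL1A1 11.6 CPM and KRT14 11.3 CPM, while DES and KRT5 were at 0 in at least 1 library. None of the 11 differed between times in its response.

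The response differed between times for 102 of 20705 genes (0.493% of genes tested; edgeR quasi-likelihood test, adjusted p below 0.05), with 13 genes higher (0.0628%) and 89 lower (0.43%) at 6 days than at 72 hours. At an unadjusted p below 0.05, 3617 genes differed. Of the 89 lower genes, 60 passed no test at 72 hours and fell at 6 days, 19 rose at 72 hours and fell at 6 days, 6 rose at 72 hours and passed no test at 6 days, and 4 fell at both times. Of the 13 higher genes, 11 passed no test at 72 hours and rose at 6 days, 1 fell and then rose, and 1 fell at 72 hours and passed no test at 6 days. The response itself was called for 2276 genes at 72 hours (11% of genes tested, 5.25% higher and 5.74% lower) and 8414 at 6 days (40.6%, 20.4% higher and 20.2% lower), and of the 1781 genes called at both times 1756 had the same direction. Among those 1756 genes, the change was larger at 6 days for 1086. Values below are CPM of each replicate, and a difference is given on the log2 scale with its SE over 2 libraries per group. A gene of at least 1 CPM had a median SE of 0.332 on the log2 difference.

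**Figure D1:**
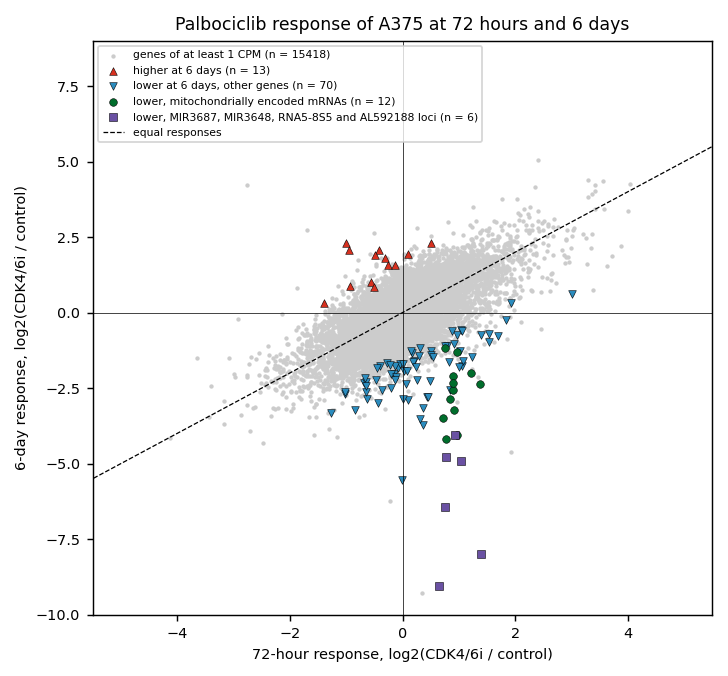
Each point is a gene of at least 1 CPM, with its log2 response to palbociclib at 72 hours on the horizontal axis and at 6 days on the vertical axis. The 13 higher genes lie above the line of equal responses and the called lower genes below it, with the 12 mitochondrially encoded mRNAs between -1.17 and -4.18 at 6 days while at or above 0.72 at 72 hours.

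The number of calls depended on the libraries in the fit. Each fit without 1 library left a single library in its group, so that group's spread no longer entered the test. This spread was widest in control_6d. Whether the lost spread, the GC trend or neither moved the counts was not tested. Leaving out replicate 1 or 2 of control_72hr left 29 or 25 calls, leaving out replicate 1 or 2 of CDK4/6i_72hr left 33 or 36, and leaving out replicate 1 or 2 of CDK4/6i_6d left 40 or 46. Leaving out replicate 1 of control_6d gave 392 calls, and leaving out replicate 2 of control_6d, after which only the more GC-poor control remained, gave 7084.

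Both the treated and the control libraries contributed to the called differences. Over the 89 lower genes, the median change between times was -1.50 on the log2 scale in the treated libraries and 0.83 in the controls, against 0.04 and -0.07 over the 15418 genes of at least 1 CPM. In 69 of the 89, both CDK4/6i_6d libraries lay below both CDK4/6i_72hr libraries. Over the 13 higher genes the median change was 1.13 in the treated libraries and -0.66 in the controls, and in 10 of them both CDK4/6i_6d libraries lay above both CDK4/6i_72hr libraries. The counts of 69 and 10 use libraries that entered the calls, so they are not separate evidence, and the share over all genes was not computed. Between CDK4/6i_72hr and CDK4/6i_6d, 4287 of 20705 genes were called in either direction. Bulk RNA cannot tell fewer cells of a kind from less RNA per cell, in these or the following results.

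**Figure D2:**
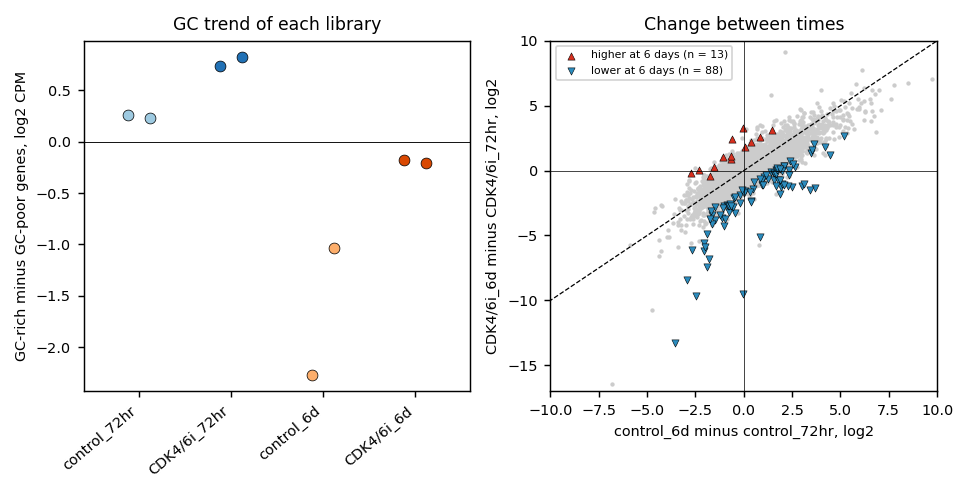
The left panel gives the GC trend of each of the 8 libraries in log2 CPM, from -2.27 in a 6-day control to 0.829 in a 72-hour treated library. The right panel plots, for each gene of at least 1 CPM, the log2 change between times in the controls against that in the treated libraries, with the called genes in colour and a dashed line of equal change.

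The largest called negative differences were at ribosomal RNA loci and at clone-named AL592188 loci. MIR3648 and MIR3687 (chr21:9826203-9826263, plus strand, GRCh37) are annotated as miRNA genes but lie in the external spacer of a ribosomal RNA precursor, and each sequence occurs 1 time in the assembly. Their GC content was 83.9% and 78.7%. The MIR3687 gene sequence is shown because it carries the largest called difference and because its base composition bears on the GC trend above.
MIR3687: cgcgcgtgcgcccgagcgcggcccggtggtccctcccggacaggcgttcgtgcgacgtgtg

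MIR3687 measured 1183 and 2559 CPM in control_72hr, 2747 and 3138 CPM in CDK4/6i_72hr, 114 and 208 CPM in control_6d, and 0.0868 and 0.504 CPM in CDK4/6i_6d. The CDK4/6i_6d libraries lay below 1 CPM, far under every other library, and the controls had also dropped between the times. The 6-day response was -9.05 and the difference between times -9.71 ± 0.70 (SE, adjusted p = 1.3e-05). MIR3648 measured 599.7 and 1183 CPM in control_72hr, 1299 and 1727 CPM in CDK4/6i_72hr, 84.3 and 149.6 CPM in control_6d, and 3.298 and 5.24 CPM in CDK4/6i_6d, the same order of groups, with a difference of -5.54 ± 0.51 (SE, adjusted p = 0.00022). After correction for GC content the differences were -8.49 (adjusted p = 0.0037) for MIR3687 and -3.38 (adjusted p = 0.051) for MIR3648, so the call for MIR3648 was lost. Reads over these loci in a poly-A library of long fragments do not measure the mature miRNAs.

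RNA5-8S5, a locus of the 5.8S ribosomal RNA, measured 118 and 181 CPM in control_72hr, 314 and 296 CPM in CDK4/6i_72hr, 257 and 274 CPM in control_6d, and 10.01 and 7.62 CPM in CDK4/6i_6d. It rose at 72 hours and fell at 6 days, with no overlap between treated and control libraries at either time, and the difference was -5.94 ± 0.35 (SE, adjusted p = 2.2e-06). Unlike the miRNA loci, its control level did not drop between the times. Of 6 clone-named AL592188 loci of at least 1 CPM, which were not placed on the genome here, all had a negative difference and 3 were called lower, among them AL592188.1 with 218 and 106 CPM in control_72hr, 369.6 and 485 CPM in CDK4/6i_72hr, 90.8 and 219 CPM in control_6d, and 0.579 and 0.616 CPM in CDK4/6i_6d. Its difference was -9.41 ± 0.64 (SE, adjusted p = 8.6e-06). AL592188.2 had a difference of -5.00. AL592188.8 had 0 and 3 counts in CDK4/6i_6d against 249 in both control_6d libraries together, a control-to-treated ratio of 94.4 (exact 95% interval 31.9 to 461, counting error only). Poly-A selection removes most ribosomal RNA, so the values at its loci describe what the selection left and not the cellular level. All 6 called loci stayed called in each of the 8 fits that left out 1 library, whereas limma voom lost AL592188.2 and AL592188.8, and limma on log2 CPM lost these and MIR3648. Cytosolic ribosomal protein mRNAs, the protein side of the same particle, had no member called among 72 and a median difference of -0.01, beside 0.07 over all genes. After GC correction, under which 0.776% of 16357 genes were called (0.0978% higher and 0.679% lower), 2 members were called lower, among them RPL13, picked out here from its values, with -1.44 (adjusted p = 0.0091), and the list's median was -0.18.

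The mRNAs encoded by the mitochondrial genome moved together. Of 13, 12 were called lower at 6 days than at 72 hours and MT-CO1 was not, and the median difference was -3.47 beside 0.07 over all genes. At 72 hours 6 of the 13 rose and none fell, with a median response of 0.89, and at 6 days none rose and 12 fell, with a median of -2.37. Their median change between times was -1.16 in the treated libraries and 2.08 in the controls, so the controls moved farther than the treated libraries. After GC correction the 12 stayed called, with a median difference of -3.39 over the list.

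The subunits of complex I showed the pattern in full. MT-ND3 (chrM:10059-10404, GRCh37) measured 6.21 and 5.401 CPM in control_72hr, 6.51 and 13.4 CPM in CDK4/6i_72hr, 70.3 and 55.9 CPM in control_6d, and 4.51 and 2.46 CPM in CDK4/6i_6d. Its 6-day controls were the highest group and its 6-day treated libraries the lowest, while both 72-hour groups lay close together. The difference was -4.95 ± 0.49 (SE, adjusted p = 0.00035). MT-ND2 measured 43.9 and 37.6 CPM in control_72hr, 55.3 and 97.5 CPM in CDK4/6i_72hr, 344 and 365 CPM in control_6d, and 51.6 and 24.1 CPM in CDK4/6i_6d, with a difference of -4.13 ± 0.46 (SE, adjusted p = 0.00087). MT-ND5, the most abundant of the complex I mRNAs, measured 278 and 259 CPM in control_72hr, 370.0 and 626 CPM in CDK4/6i_72hr, 1126 and 1017 CPM in control_6d, and 293 and 202 CPM in CDK4/6i_6d. Here the treated libraries exceeded the controls at 72 hours and fell short of them at 6 days, without overlap at either time, and the difference was -3.01 ± 0.37 (SE, adjusted p = 0.0017). The log2 differences of the others were -3.22 for MT-ND1, -3.47 for MT-ND4, -3.69 for MT-ND4L and -3.22 for MT-ND6, the member read from the opposite strand of the genome.

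The other complexes differed more among their members. MT-ATP6 of ATP synthase measured 53.2 and 53.5 CPM in control_72hr, 59.1 and 116 CPM in CDK4/6i_72hr, 423 and 423 CPM in control_6d, and 50.4 and 24.7 CPM in CDK4/6i_6d, and its 72-hour groups did not overlap although its 72-hour response passed no test. Its difference was -4.21 ± 0.47 (SE, adjusted p = 0.00087). MT-ATP8, the least abundant member, did not exceed 14.9 CPM and had a difference of -5.02 ± 0.59 (SE, adjusted p = 0.0011). Within cytochrome c oxidase, MT-CO2 measured 104 and 97.6 CPM in control_72hr, 216 and 309 CPM in CDK4/6i_72hr, 600.0 and 517 CPM in control_6d, and 147 and 68.4 CPM in CDK4/6i_6d, with responses of 1.38 at 72 hours and -2.37 at 6 days and a difference of -3.75 ± 0.43 (SE, adjusted p = 0.00098). MT-CO3 had a smaller difference of -1.93 ± 0.31 (SE, adjusted p = 0.012), and so had MT-CYB of complex III with -2.26 ± 0.33 (SE, adjusted p = 0.0072).

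MT-CO1 behaved differently from the rest of the list. It measured 3079 and 2286 CPM in control_72hr, 4733 and 4580.5 CPM in CDK4/6i_72hr, 3333 and 2579 CPM in control_6d, and 4026 and 3149.9 CPM in CDK4/6i_6d, the highest levels of all 13. Treated libraries were higher than controls at 72 hours, the groups overlapped at 6 days, and the difference was -0.52 ± 0.33 (SE, adjusted p = 0.41). The mitochondrial ribosomal RNAs MT-RNR1 and MT-RNR2 had differences of -1.39 ± 1.03 (SE, adjusted p = 0.48) and -2.52 ± 0.77 (SE, adjusted p = 0.16). Nuclear-encoded subunits of oxidative phosphorylation had no member called among 64, with a median difference of -0.09, although after GC correction NDUFC1, likewise picked out from its values, was called lower with -1.86 (adjusted p = 0.046). Nuclear copies of mitochondrial sequence can take or block reads, and by annotation MT-ATP8 overlaps MT-ATP6 (chrM:8366-8572 and chrM:8527-9207) and MT-ND4L overlaps MT-ND4 (chrM:10470-10766 and chrM:10760-12137), so the split between members is uncertain. Of the 12 calls limma voom kept 3 (MT-ATP8, MT-CO2 and MT-ND3) and limma on log2 CPM none. Leaving out 1 library at a time kept 9 to 12 of the 12 calls: MT-CO3 lost its call without replicate 1 of control_72hr (-2.06), replicate 2 of control_72hr (-1.88), replicate 2 of CDK4/6i_72hr (-1.72) or replicate 2 of CDK4/6i_6d (-1.76), MT-CYB without replicate 2 of control_72hr (-2.17), CDK4/6i_72hr (-1.99) or CDK4/6i_6d (-2.05), and MT-ND1 without replicate 1 (-3.21) or 2 (-3.30) of control_72hr.

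**Figure D3:**
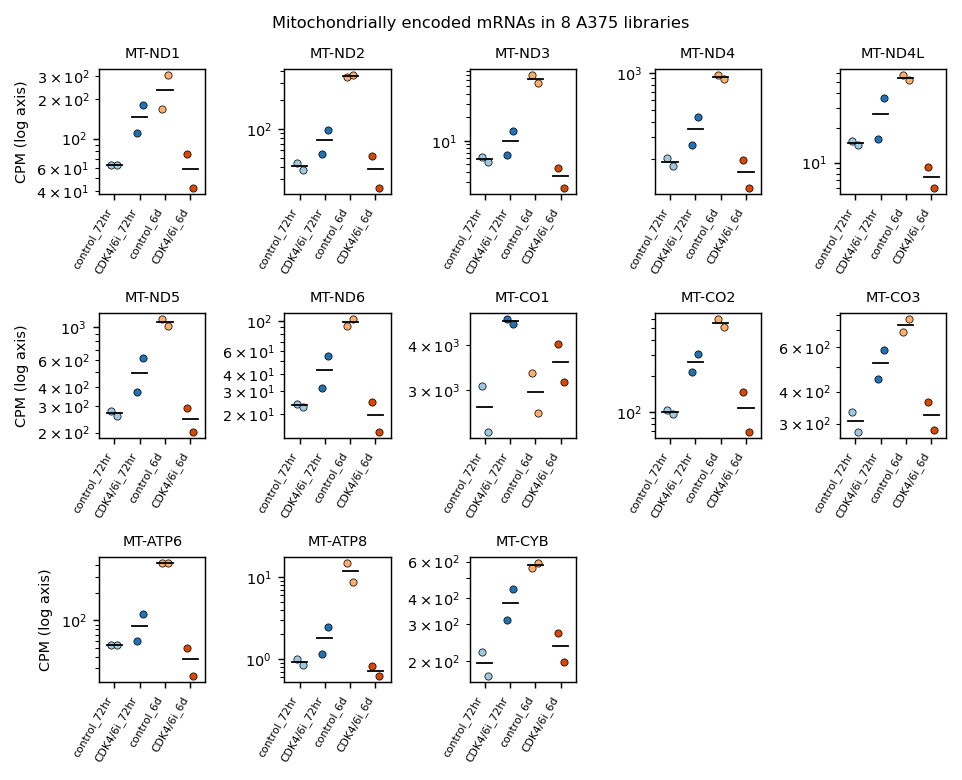
Each panel plots the CPM of an mRNA encoded by the mitochondrial genome on a log axis in the 8 A375 libraries, with points for libraries and bars for group means. In all panels but that of MT-CO1 the 6-day treated libraries lie below the 6-day controls, for example at 4.51 and 2.46 CPM against 70.3 and 55.9 CPM for MT-ND3.

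Among the remaining lower genes, several of the largest differences were at genes of low level that dropped in all 6-day libraries and dropped further with the drug. KDM1A (GRCh37, chr1:23345936-23410182), a histone lysine demethylase, measured 6.84 and 9.69 CPM in control_72hr, 8.16 and 8.31 CPM in CDK4/6i_72hr, 1.68 and 2.73 CPM in control_6d, and 0 and 0.084 CPM in CDK4/6i_6d. Its CDK4/6i_6d libraries held 0 and 3 counts against 135 in both controls together, a control-to-treated ratio of 51.2 (exact 95% interval 17.1 to 251, counting error only), and its 72-hour groups overlapped. SHB (chr9:37915895-38069224), an adaptor of receptor tyrosine kinases, measured 6.21 and 7.62 CPM in control_72hr, 8.604 and 8.62 CPM in CDK4/6i_72hr, 1.59 and 1.82 CPM in control_6d, and 0.0868 and 0.196 CPM in CDK4/6i_6d, with a difference of -3.85 ± 0.50 (SE, adjusted p = 0.0028). CITED4 (chr1:41326726-41328035), a co-activator that binds CBP and p300, measured 25.2 and 38.5 CPM in control_72hr, 40.5 and 41.4 CPM in CDK4/6i_72hr, 6.68 and 8.84 CPM in control_6d, and 0.752 and 0.952 CPM in CDK4/6i_6d. The 6-day treated libraries were the lowest and did not overlap with any other group, and the difference was -3.54 ± 0.38 (SE, adjusted p = 0.00077). ZNF579, a zinc-finger gene, and NOG, which encodes the BMP antagonist noggin, had differences of -3.25 ± 0.37 (SE, adjusted p = 0.00094) and -2.98 ± 0.47 (SE, adjusted p = 0.011). In all 5 of these genes the control level also dropped between the times, by 1.04 to 2.04 on the log2 scale.

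STARD4 (chr5:110831731-110848288), a sterol carrier, moved the other way in the controls. It measured 31.1 and 30.5 CPM in control_72hr, 26.4 and 18.9 CPM in CDK4/6i_72hr, 141 and 81.2 CPM in control_6d, and 14.99 and 13.1 CPM in CDK4/6i_6d, so that the 6-day controls were the highest group and the 6-day treated libraries the lowest. Its difference was -2.54 ± 0.36 (SE, adjusted p = 0.0062), and it was the only called member among 36 genes of cholesterol and fatty acid synthesis, whose median difference was -0.02. VEGFC (chr4:177604689-177714076), a growth factor for lymphatic vessels, measured 243 and 185 CPM in control_72hr, 111 and 98.7 CPM in CDK4/6i_72hr, 174 and 138 CPM in control_6d, and 22.3 and 28.6 CPM in CDK4/6i_6d. It fell at both times, without overlap, with responses of -1.03 at 72 hours and -2.62 at 6 days, and the difference was -1.59 ± 0.31 (SE, adjusted p = 0.035). PCSK1N, an inhibitor of a prohormone convertase, did not exceed 2.37 CPM, with responses of 1.98 at 72 hours and -2.18 at 6 days and a difference of -4.17 ± 0.78 (SE, adjusted p = 0.031). Of these 8 genes limma voom called only STARD4 and ZNF579, and limma on log2 CPM only PCSK1N. In the edgeR fits KDM1A, SHB, CITED4 and ZNF579 stayed called without any 1 library, whereas NOG (-2.74 to -3.05), PCSK1N (-3.48 to -4.25) and VEGFC (-1.42 to -1.80) lost their calls without either control_72hr library, without either CDK4/6i_72hr library or without replicate 1 of CDK4/6i_6d. VEGFC also lost its call without replicate 2 of CDK4/6i_6d (-1.78). STARD4 lost its call without either control_72hr library (-2.55 and -2.60) or without replicate 2 of CDK4/6i_6d (-2.44).

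Further called lower genes, chosen here after their values were seen, included transcription regulators and surface proteins. Of the regulators, CEBPD measured 4.79 and 7.41 CPM in control_72hr, 7.89 and 9.15 CPM in CDK4/6i_72hr, 2.704 and 3.47 CPM in control_6d, and 0.752 and 0.532 CPM in CDK4/6i_6d and had a difference of -2.74 ± 0.45 (SE, adjusted p = 0.015). JUND, an AP-1 subunit, measured 62.02 and 78.7 CPM in control_72hr, 77.99 and 81.6 CPM in CDK4/6i_72hr, 18.9 and 26.3 CPM in control_6d, and 7.09 and 7.56 CPM in CDK4/6i_6d, with overlapping groups at 72 hours and the treated libraries below the controls at 6 days, and had a difference of -1.81 ± 0.30 (SE, adjusted p = 0.015). KLF5 measured 67.2 and 74.5 CPM in control_72hr, 75.7 and 69.4 CPM in CDK4/6i_72hr, 230.2 and 203 CPM in control_6d, and 49.5 and 64.2 CPM in CDK4/6i_6d, its 6-day controls standing above every other library, and had a difference of -1.96 ± 0.28 (SE, adjusted p = 0.0062). CITED2, HOXB2 and VGLL3 had differences of -1.71, -2.01 and -2.70. Adhesion proteins of the cadherin family were CDH7, CDH11, CDH19 and PCDH11X, with differences of -1.77, -1.68, -2.47 and -2.22. After GC correction only CDH19 of these stayed called (-1.56, adjusted p = 0.0084). CDH7 (-1.07, adjusted p = 0.15), CDH11 (-1.52, adjusted p = 0.061) and PCDH11X (-1.66, adjusted p = 0.12) lost their calls. CDH19, a cadherin of the Schwann cell and melanocyte lineage, rose with treatment at 72 hours and measured 6.58 and 6.67 CPM in control_72hr, 20.5 and 22.6 CPM in CDK4/6i_72hr, 305 and 169 CPM in control_6d, and 127 and 152 CPM in CDK4/6i_6d, so both 6-day groups were far above the 72-hour groups. The semaphorins SEMA3D and SEMA3E and the netrin receptor UNC5D, which act in axon guidance, had differences of -1.40, -2.08 and -1.40. SEMA3D lost its call after GC correction (-0.79, adjusted p = 0.23), while SEMA3E and UNC5D kept theirs (-1.46 and -1.23, adjusted p = 0.023 and 0.025). HSPB1, a small heat shock protein, had a difference of -2.18 ± 0.36 (SE, adjusted p = 0.013), and TERC, the RNA component of telomerase, -2.42 ± 0.40 (SE, adjusted p = 0.013). These and the regulators above stayed called after GC correction.

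The 13 genes with a higher response at 6 days were mostly ones that rose at 6 days alone. Among them were IL37, a cytokine of the interleukin-1 family that dampens inflammation, and IL4R, the receptor chain for interleukin-4. IL37 (chr2:113668742-113676459, GRCh37) measured 0.684 and 0.953 CPM in control_72hr, 0.552 and 0.261 CPM in CDK4/6i_72hr, 0.653 and 0.945 CPM in control_6d, and 4.08 and 3.81 CPM in CDK4/6i_6d. Its 6-day treated libraries stood above all others at a low level, and the difference was 3.31 ± 0.61 (SE, adjusted p = 0.029). IL4R (chr16:27324989-27376099) measured 38.8 and 41.1 CPM in control_72hr, 35.02 and 31.9 CPM in CDK4/6i_72hr, 10.7 and 16.7 CPM in control_6d, and 37.5 and 43.4 CPM in CDK4/6i_6d. At 6 days the treated libraries lay above the controls, near the level of the 72-hour libraries, and the 6-day controls were the lowest group. The difference was 1.82 ± 0.32 (SE, adjusted p = 0.022). GPR132, a G-protein coupled receptor, measured 3.37 and 3.49 CPM in control_72hr, 3.81 and 3.55 CPM in CDK4/6i_72hr, 4.51 and 4.35 CPM in control_6d, and 14.03 and 20.3 CPM in CDK4/6i_6d, with a difference of 1.85 ± 0.38 (SE, adjusted p = 0.047).

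In SULT1B1, HKDC1, SLC1A4 and DEXI, too, the 6-day treated libraries stood above all others. SULT1B1 (chr4:70586885-70653679), a sulfotransferase, measured 3.74 and 7.52 CPM in control_72hr, 2.65 and 3.19 CPM in CDK4/6i_72hr, 4.63 and 2.73 CPM in control_6d, and 15.7 and 15.2 CPM in CDK4/6i_6d. The 6-day treated libraries were the highest and the difference was 3.01 ± 0.49 (SE, adjusted p = 0.013). HKDC1 (chr10:70980088-71027308), a hexokinase, measured 5.74 and 5.08 CPM in control_72hr, 3.92 and 4.81 CPM in CDK4/6i_72hr, 2.39 and 2.699 CPM in control_6d, and 10.1 and 7.79 CPM in CDK4/6i_6d, with a difference of 2.12 ± 0.38 (SE, adjusted p = 0.024). SLC1A4 (chr2:65215611-65250999), a transporter of neutral amino acids, measured 17.1 and 16.5 CPM in control_72hr, 14.6 and 16.05 CPM in CDK4/6i_72hr, 44.8 and 47.9 CPM in control_6d, and 122 and 152 CPM in CDK4/6i_6d. Its level was higher in all 6-day libraries than in all 72-hour libraries and highest with treatment, and the difference was 1.69 ± 0.27 (SE, adjusted p = 0.012), or 1.62 (adjusted p = 0.0078) after GC correction. DEXI, first described as a dexamethasone-induced transcript, measured 8.003 and 6.94 CPM in control_72hr, 10.9 and 10.3 CPM in CDK4/6i_72hr, 7.49 and 7.86 CPM in control_6d, and 43.7 and 32.4 CPM in CDK4/6i_6d, with only the 6-day treated libraries apart, and had a difference of 1.81 ± 0.32 (SE, adjusted p = 0.022).

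Between the times the controls fell in 7 of the 13 genes, among them HKDC1 and IL4R above and PDE2A, RAB3B, WWC1 and KLHL29, and rose in SLC1A4 and RNF157. PDE2A (chr11:72287185-72385635), a cyclic nucleotide phosphodiesterase, measured 20.95 and 23.8 CPM in control_72hr, 16.4 and 16.9 CPM in CDK4/6i_72hr, 2.52 and 4.32 CPM in control_6d, and 9.95 and 19.04 CPM in CDK4/6i_6d, so that the 6-day treated libraries lay above their own controls but overlapped with the 72-hour treated libraries, and the difference was 2.51 ± 0.44 (SE, adjusted p = 0.022). RAB3B (chr1:52373628-52456372), a GTPase of regulated secretion, measured 55.4 and 50.03 CPM in control_72hr, 40.04 and 35.3 CPM in CDK4/6i_72hr, 11.4 and 9.61 CPM in control_6d, and 54.8 and 24.8 CPM in CDK4/6i_6d, with the same overlap of the treated libraries and a difference of 2.41 ± 0.41 (SE, adjusted p = 0.02). RNF157, a ubiquitin ligase, fell at 72 hours and showed no called change at 6 days, with 13.3 and 12.2 CPM in control_72hr, 5.46 and 4.23 CPM in CDK4/6i_72hr, 24.96 and 20.7 CPM in control_6d, and 28.8 and 27.9 CPM in CDK4/6i_6d and a difference of 1.71 ± 0.31 (SE, adjusted p = 0.028). WWC1 (also KIBRA), an upstream member of the Hippo pathway, and KLHL29 had differences of 1.37 ± 0.27 (SE, adjusted p = 0.043) and 1.58 ± 0.28 (SE, adjusted p = 0.022). The largest clone-named gene was RP11-445F12.1 with 1.81 ± 0.33 (SE, adjusted p = 0.026).

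The 13 higher calls depended on most of the libraries. Without either control_6d library all 13 log2 differences stayed positive. Such a fit holds no spread of that group, whose replicates stood farthest apart, so calls kept in it do not show that they are stable. Without a control_72hr library 1 (SULT1B1, replicate 1 left out) or none kept it, without either CDK4/6i_72hr library none did, and without replicate 1 or 2 of CDK4/6i_6d 2 each did (PDE2A and SLC1A4, or DEXI and RAB3B), with all log2 differences still positive. After GC correction 7 of the 12 with a GC value stayed called and DEXI, GPR132, PDE2A, RNF157 and WWC1 did not. By limma voom and by limma on log2 CPM none of the 13 was called.

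**Figure D4:**
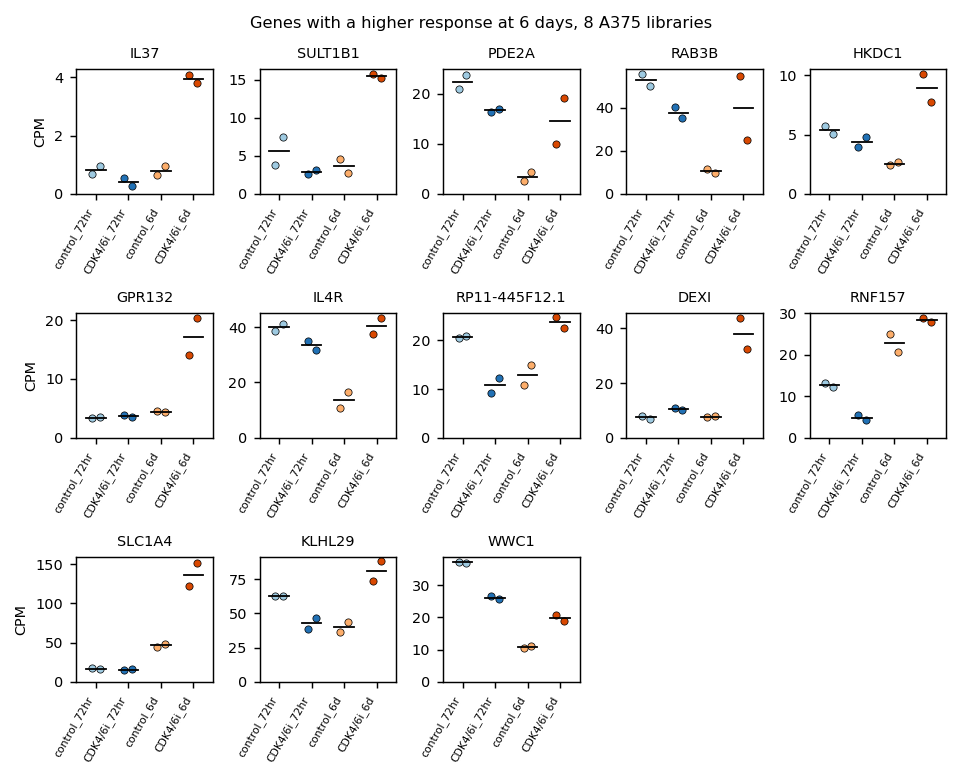
Each panel plots the CPM of a gene with a higher response at 6 days in the 8 A375 libraries, on a linear axis that starts at 0, with points for libraries and bars for group means. In IL37, SULT1B1, GPR132, DEXI and SLC1A4 the 6-day treated libraries stand above all others, while in IL4R, PDE2A, RAB3B and WWC1 the 6-day controls are the lowest group.

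No gene of the direct pathway of the drug passed the test of the difference. None of the 25 measured genes of the CDK4/6-RB axis was called, and their median difference was -0.01. After GC correction 1 member was called lower, CDKN2C, which encodes the CDK4/6 inhibitor p18, with -1.56 (adjusted p = 0.046) against -1.06 ± 0.29 (SE, adjusted p = 0.12) before it. The drug targets CDK4 and CDK6 had differences of 0.68 ± 0.33 (SE, adjusted p = 0.3) and -0.73 ± 0.28 (SE, adjusted p = 0.22). CCND1, the cyclin D1 gene, measured 407 and 420.3 CPM in control_72hr, 758 and 781 CPM in CDK4/6i_72hr, 354 and 458 CPM in control_6d, and 744 and 815 CPM in CDK4/6i_6d, rose at both times without overlap, and had a difference of 0.05 ± 0.28 (SE, adjusted p = 0.96). CDKN1A, which encodes the CDK inhibitor p21, likewise rose at both times, with responses of 1.52 at 72 hours and 1.32 at 6 days and a difference of -0.20 ± 0.39 (SE, adjusted p = 0.81). RB1 had a difference of -1.13 ± 0.37 (SE, adjusted p = 0.17), and CDKN1C, which encodes p57 and had the smallest p of the axis, -1.87 ± 0.45 (SE, adjusted p = 0.094). CCNE1 and CCNE2, the cyclin E genes, had opposite responses at 6 days (0.91 and -2.11, both called), and differences of 0.28 and -0.19 that passed no test.

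Replication genes fell at both times, with a smaller median response at 6 days. Of 63 E2F-driven genes of S phase, 56 fell at 72 hours and 39 fell and 1 rose at 6 days, the median response was -1.25 and then -0.83, and 52 of 63 had a positive difference (82.5%, beside 54.0% over all genes) with none called. The median difference was 0.54, or 0.47 after GC correction. The list's median change between times was 0.16 in the treated libraries and -0.35 in the controls, so the controls moved farther. E2F1, an activator E2F, measured 57.7 and 60.5 CPM in control_72hr, 16.7 and 23.6 CPM in CDK4/6i_72hr, 21.01 and 40.7 CPM in control_6d, and 26.3 and 26.7 CPM in CDK4/6i_6d. Treatment separated the libraries at 72 hours, while at 6 days the treated libraries lay between the controls, and the difference was 1.33 ± 0.39 (SE, adjusted p = 0.14). CDC45, part of the replicative helicase, measured 47.1 and 47.9 CPM in control_72hr, 12.5 and 13.7 CPM in CDK4/6i_72hr, 24.2 and 36.5 CPM in control_6d, and 16.8 and 16.3 CPM in CDK4/6i_6d, with treated libraries below controls at both times and a difference of 0.98 ± 0.31 (SE, adjusted p = 0.17). E2F2 had a difference of 0.81 ± 0.38 (SE, adjusted p = 0.29). The E2F1 and CDC45 controls were themselves lower at 6 days than at 72 hours.

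Histone genes, whose mRNAs lack a poly-A tail and are made in S phase, fell in 52 of 60 cases at 72 hours and 56 at 6 days. Their median difference was 0.25, or 0.00 after GC correction. The libraries were poly-A selected, so these histone values describe what the selection left and not the cellular level. Of 80 genes of G2 and mitosis, 73 fell at 72 hours and 66 at 6 days, with medians of -1.32 and -1.24 and a median difference of 0.18. No member of either list was called in the difference.

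**Figure D5:**
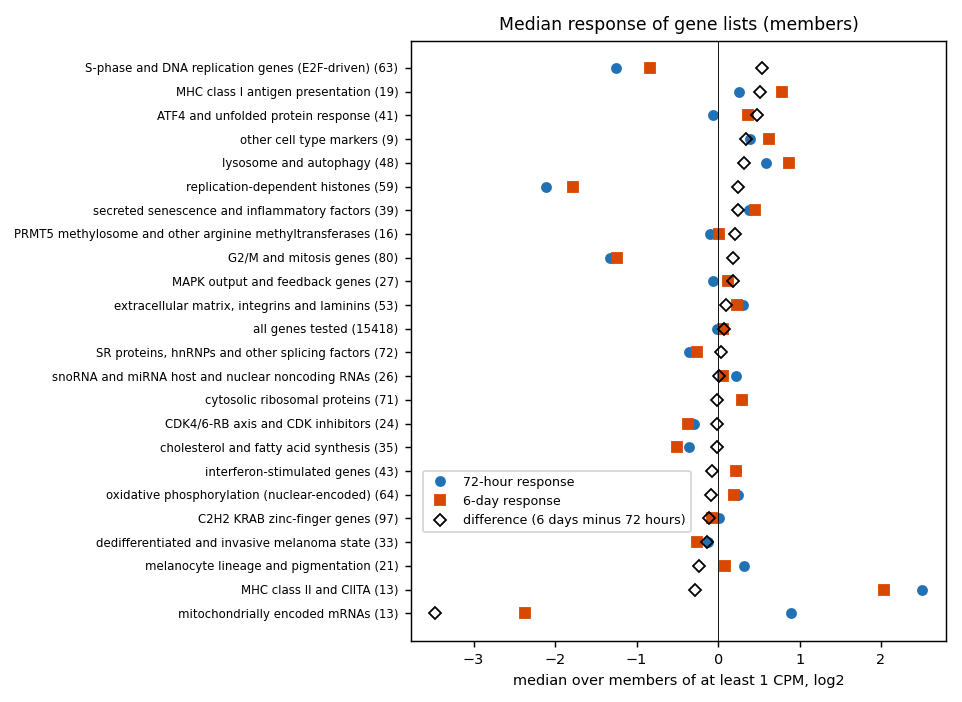
For each gene list shown and for all genes, symbols give the median log2 response at 72 hours, at 6 days and the median difference, over the members of at least 1 CPM (number in parentheses). Mitochondrially encoded mRNAs stand apart with a median difference of -3.47, and the next lists lie between -0.29 and 0.54.

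Amino acid synthesis genes of the ATF4 programme were among the members nearest to the threshold. Of 41 genes of the ATF4 and unfolded protein response, 35 had a positive difference (85.4%, beside 54.0% over all genes). The median was 0.47 and none was called. The list's median change between times was -0.11 in the treated libraries and -0.75 in the controls. Over all genes of at least 1 CPM these medians were 0.04 and -0.07. At 72 hours 3 rose and 3 fell, and at 6 days 15 rose and 3 fell. Of all genes tested, 5.25% rose and 5.74% fell at 72 hours, and 20.4% rose and 20.2% fell at 6 days. ASNS, asparagine synthetase, measured 51.2 and 66.7 CPM in control_72hr, 26.2 and 30.3 CPM in CDK4/6i_72hr, 31.5 and 26.5 CPM in control_6d, and 36.97 and 35.3 CPM in CDK4/6i_6d. It fell at 72 hours without overlap, its treated libraries lay above the controls at 6 days without passing the test, and the difference was 1.38 ± 0.29 (SE, adjusted p = 0.056), or 1.57 (adjusted p = 0.0096) after GC correction. PHGDH, which opens serine synthesis and was chosen here after its values were seen, had 1.41 ± 0.30 (SE, adjusted p = 0.06), or 1.07 (adjusted p = 0.02) after GC correction.

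Antigen presentation genes had positive median responses at both times. Of 19 genes of MHC class I presentation, 5 rose at 72 hours and 14 at 6 days, none fell, and the median difference was 0.52, or 0.27 after GC correction. MHC class II genes had the largest positive median responses of all lists, 2.50 at 72 hours and 2.03 at 6 days, and a median difference of -0.29. HLA-DPB1 had the smallest p among them, with responses of 0.39 at 72 hours and 1.90 at 6 days and a difference of 1.51 ± 0.36 (SE, adjusted p = 0.093). Lysosome and autophagy genes rose in 15 of 49 cases at 72 hours and 31 at 6 days, with a median difference of 0.32, or 0.12 after GC correction. Over all genes tested, the share that rose also grew, from 5.25% at 72 hours to 20.4% at 6 days. The median change between times of the MHC class I list was -0.26 in the treated libraries and -0.77 in the controls. For lysosome and autophagy genes these medians were -0.05 and -0.45, and for MHC class II genes 1.99 and 2.28. No member of these lists was called in the difference.

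In the remaining lists the medians lay between -0.23 and 0.34, and their only called members were VEGFC among 42 secreted factors and MIR3687 and MIR3648 among 27 noncoding RNAs. After GC correction HERC6 of the interferon-stimulated genes and NID2 of the extracellular matrix were also called lower, with -1.16 (adjusted p = 0.03) and -1.54 (adjusted p = 0.012), and the zinc-finger gene ZNF432 higher, with 1.15 (adjusted p = 0.032), all picked out from their values. FN1, the fibronectin gene of the extracellular matrix, came near the threshold with responses of 1.51 at 72 hours and 0.07 at 6 days and a difference of -1.45 ± 0.31 (SE, adjusted p = 0.062). SLC45A2, a pigment cell transporter, had responses of 0.72 at 72 hours and 2.25 at 6 days and a difference of 1.53 ± 0.39 (SE, adjusted p = 0.11). Among the arginine methyltransferases and their partners, PRMT5 had a difference of 0.86 ± 0.38 (SE, adjusted p = 0.27) and its partner WDR77 of 0.68 ± 0.29 (SE, adjusted p = 0.26). U2AF2, a splicing factor, had 0.04 ± 0.33 (SE, adjusted p = 0.97).

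CHL1 allowed a comparison of the change between times in treated libraries, since its 72-hour control drops out and it has no 6-day control. In CHL1, 2 genes were called between 6 days and 72 hours of palbociclib (0.00966% of genes tested; 2216 at an unadjusted p below 0.05, and 188 called by DESeq2), AKR1B10 and EDIL3, neither of them among the 102 genes. Without replicate 1 or 2 of the CHL1 6-day libraries 1044 or 454 genes were called, and without any of the others 0 to 4. Of the 89 lower genes, 22 had a negative value in CHL1, while over all genes of at least 1 CPM 49.7% had a positive one. The A375 difference minus the CHL1 change was called for 449 genes (2.17%, with 0.309% higher and 1.86% lower), among them 75 of the 89 lower and 6 of the 13 higher genes. That value contains the A375 difference by which the 102 genes were called. The overlap, and the line differences of called genes below, are therefore not separate evidence. MT-ND3 held 68.1 and 51.9 CPM in the CHL1 libraries at 72 hours of palbociclib and 55.5 and 67.7 CPM at 6 days, and the line difference was -5.05 (adjusted p = 0.00023). RNA5-8S5 held 532 and 417 CPM and then 709 and 652 CPM, with a line difference of -6.51 (adjusted p = 1.4e-06). For CDC45 the line difference was 1.16 (adjusted p = 0.052). The A375 value rests on a 6-day control and the CHL1 value does not, so the lines were compared on unequal designs. By their labels, the CHL1 libraries of both times carry the set name of the A375 6-day libraries. The A375 value thus crosses library sets and the CHL1 value does not, so line and set cannot be told apart here. The count of 449 was 4145 without replicate 2 of the A375 control_6d group and 878 without replicate 2 of the CHL1 6-day libraries, and it ranged from 99 to 250 without any of the other 10.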

How the data were processed

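RNA was sequenced by the authors as poly-A selected, paired-end libraries (TruSeq). Per the labels and the study's methods, reads were aligned to GRCh37 with HISAT2 (version 2.0.4 in the submitters' processing notes) and counted per gene with HTSeq at default settings (0.11.2 in the same notes, while the study's methods name another version). Strandedness of the libraries is not given in the sources used here, so reads of overlapping sense and antisense genes cannot be told apart. The deposited table holds raw counts of the authors for 20705 genes in 18 libraries. Counts were fitted with edgeR (4.0.16, R 4.3.3): TMM scaling, 1 mean per group over the 8 A375 libraries, quasi-likelihood F tests with a prior count of 0.125, and Benjamini-Hochberg adjustment over all 20705 genes, called at an adjusted p below 0.05. CPM used TMM-scaled library sizes. The standard error is the log2 value divided by the square root of F. The CHL1 comparison used its 6 libraries and the line difference all 18. Medians and signs over lists were taken over genes whose mean CPM in these libraries reached 1, and called members were counted over all members in the table.

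For the GC correction, each library's log2 deviation was fitted on GC content of the longest transcript by loess (span 0.4) and entered as an offset, for 16357 genes matched to GENCODE 44 lifted to GRCh37 by current or older symbol. Coordinates come from the same annotation. The test was checked on simulated counts. Limma (3.58.1) and DESeq2 (1.42.0), other fits, scalings, filters, the replicate block and each library left out were alternatives. Intervals of count ratios are exact and cover counting error only. The 24 gene lists and the genes described were chosen with earlier results of these data known. Named genes were those the study targets, the 12 largest called differences of each direction of at least 1 CPM, up to 4 called members of each list or else the member with the smallest p, 6 more of each direction called also after GC correction, and the 5 largest called in opposite directions at both times. Clone-named genes were left out except the largest of each direction. Genes absent from the table, such as SOX10 and MLANA, were not analysed here, and 1 of the lists, a gene and the sequence of MIR3648 are not reported here.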

Additional observations from a re-analysis of the deposited data

Results flagged for a closer look

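Responses differed between the 72-hour and the 6-day groups for 102 genes by the interaction term, and 12 of the 13 mitochondrially encoded mRNAs were among them. The A375 difference between times minus the CHL1 change in treated libraries, which has no 6-day control, was called for 449 genes. Groups of 2 libraries are too small for a test of outlying samples, so none was made.

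The log2 differences of the named genes that were higher at 6 days were 3.31 for IL37, 3.01 for SULT1B1, 2.51 for PDE2A, 2.41 for RAB3B, 2.12 for HKDC1, 1.85 for GPR132, 1.82 for IL4R, 1.81 for RP11-445F12.1, 1.81 for DEXI, 1.71 for RNF157, 1.69 for SLC1A4, 1.58 for KLHL29 and 1.37 for WWC1.

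Lower at 6 days were MIR3687 (-9.71), AL592188.1 (-9.41), AL592188.8 (-7.18, a fitted value that depends on the prior count), RNA5-8S5 (-5.94), MIR3648 (-5.54) and AL592188.2 (-5.00). The mitochondrially encoded mRNAs were MT-ATP8 (-5.02), MT-ND3 (-4.95), MT-ATP6 (-4.21), MT-ND2 (-4.13), MT-CO2 (-3.75), MT-ND4L (-3.69), MT-ND4 (-3.47), MT-ND1 (-3.22), MT-ND6 (-3.22), MT-ND5 (-3.01), MT-CYB (-2.26) and MT-CO3 (-1.93). The other named genes were KDM1A (-5.53, also dependent on the prior count), PCSK1N (-4.17), SHB (-3.85), CITED4 (-3.54), ZNF579 (-3.25), NOG (-2.98), STARD4 (-2.54) and VEGFC (-1.59).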

How the results depend on the processing

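The count of 102 genes became 224 with all 10 A375 libraries in the fit, 246 with all 18, 768 by DESeq2, 18 by limma voom with library quality weights, 7 by limma on log2 CPM with a pseudocount of 1, and 4287 with the 72-hour control used for both times. It was 127 after GC correction, 122 with median-of-ratios scaling and 100 with a filter on low counts. Leaving out 1 library gave 25 to 7084. The 72-hour count of 2276 became 6954 by voom, 3740 after GC correction, 3714 after GC and length correction (chosen after seeing the data), 1409 with an absolute log2 change of at least 1, and 453 to 627 without 1 library. The 6-day count of 8414 became 4603 by voom, 5196 with GC correction and the block below, 4738 with an absolute log2 change of at least 1, and 4963 to 11594 without 1 library. The CHL1 count of 2 became 188 by DESeq2 and 0 to 1044 without 1 library, and the line difference of 449 became 1251 by DESeq2 and 99 to 4145 without 1 library (leaving out libraries in these comparisons was chosen after seeing the data). The 12 calls among mitochondrially encoded mRNAs became 3 by voom and 0 by limma on log2 CPM, where none reached an adjusted p below 0.05 but all kept their sign. The 13 higher calls became 0 by both.

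With a replicate block of the 72-hour libraries, 51 genes were called, 57 with GC correction and the block, and 1514 at 72 hours. The block kept 3 of the 13 higher calls (RAB3B, SLC1A4 and SULT1B1), all 12 mitochondrially encoded mRNAs and all 6 loci of ribosomal RNA, and ended those of PCSK1N and VEGFC. Deviations from the group means of libraries with the same number correlated at 0.164 between control_72hr and CDK4/6i_72hr and at 0.406 and 0.195 between the A375 PRMT5 inhibitor group and these, and with 2 numbers the libraries were treated as sharing only a number. The numbers of the 6-day libraries pair nothing.

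Over the 80 named genes, 640 values without 1 library held 500 on the same side of the threshold, 101 that lost the call, 39 that gained it and 0 reversed. Over the other alternatives 858 of 1019 stayed on the same side, 108 lost the call, 48 gained it and 5 reversed. The reversed values all came from using the 72-hour control for both times, with -0.85 for CDK4, 2.46 for EGR3, 1.11 for LUM, -0.20 for PDE2A and -0.40 for WWC1. In all, 94 genes had no read in the 8 libraries.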
